A study of Mus musculus with 4 samples.

Results

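The genes described here are 10 immediate early genes, the transcription factor genes Fos, Fosb, Jun, Junb, Egr1, Atf3, Myc and Nr4a1, the nuclear protein gene Ier2 and the growth factor gene Hbegf. They are taken by gene symbol as a set chosen with earlier results of these data known, and 12 of the 20380 probe sets that carry a single gene symbol on this array measure them, with 2 each for Jun and Hbegf. The RNA came from gastrocnemius, the large calf muscle, of 2 kinds of mice: MCK-PPARa transgenic mice, which overexpress the nuclear receptor PPARα in muscle, and their non-transgenic (NTG) littermates. MCK stands for muscle creatine kinase, whose promoter is active in striated muscle fibres. The design text speaks of 2 mice per genotype, and each genotype has 2 arrays, numbered replicate 1 and replicate 2. The sources used here give no strain, age, sex, feeding state or transgenic line, and do not say how the muscle was taken or what a shared replicate number marks.

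Immediate early genes are transcribed within minutes of a stimulus, without new protein synthesis, when kinases activate factors that already sit on their promoters. In skeletal muscle, contraction, nerve activity, stretch and injury are known to induce them, and their messages are short-lived. Fos and Jun family proteins pair to form the transcription factor AP-1, and Atf3 pairs with some of the same partners. Nr4a1 (Nur77) is an orphan nuclear receptor that raises genes of glucose use in muscle. Hbegf encodes a membrane-anchored growth factor that is cut loose to bind the EGF receptor.

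Signals are the authors' MAS5 values, 1 per probe set and on a linear scale. Differences are MCK-PPARa minus NTG in log2(signal + 64.2), with standard errors (SE, n = 2 arrays per group), and folds are taken on the same scale, which understates the change of dim genes. Of the 10 genes, 8 passed the filter on low signals and were tested among 8400 genes with limma, and Fosb and Myc did not pass it. Their values, and those of the second Jun and Hbegf probe sets, come from the limma fit of all 20380 probe sets without a filter. Adjusted p-values are Benjamini-Hochberg values over every gene or probe set in the fit, with a threshold of 0.05. The smallest two-sided p that an exact permutation test allows with 2 arrays in each group is 0.333.

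Hbegf, Nr4a1 and Fos read lower on both MCK-PPARa arrays than on both NTG arrays, and Jun and Atf3 read higher on both. None of the 8 tested genes passed limma's adjusted threshold, at which 0.0595% of all genes were called. Hbegf, Nr4a1, Atf3 and Fos, 4 genes, had an unadjusted p under 0.05, where 5.85% of all genes reached that level. Atf3 passed the filter only through the MCK-PPARa arrays, so that its place among the 4 follows in part from the filter. The groups did not overlap for 5 of the 10 genes, 3 lower and 2 higher, against 34.2% of all genes (13.8% lower and 20.3% higher). The 2 members outside the filter and the second probe sets were not called either, where 0.0196% of all 20380 probe sets were called and 33.8% had groups that did not overlap. The difference had opposite signs in the 2 replicate numbers for Junb and Myc, as it had for 38.8% of all genes. The members went both ways: 6 differences were above 0 and 4 below, with a median of 0.12 over the 10, beside a median of 0.095 over all 12393 genes without a filter. The members' median became -0.17 when MCK-PPARa replicate 1 was left out, -0.20 when NTG replicate 2 was, and 0.41 when NTG replicate 1 was. The median size of a member's difference, without regard to sign, was 0.74 on the log2 scale, against 0.31 over the 12393 genes. The members' differences between replicate 1 and replicate 2 were larger in size too, with a median of 0.64 against 0.37. The members were also chosen with earlier results of these data known.

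**Figure D1:**
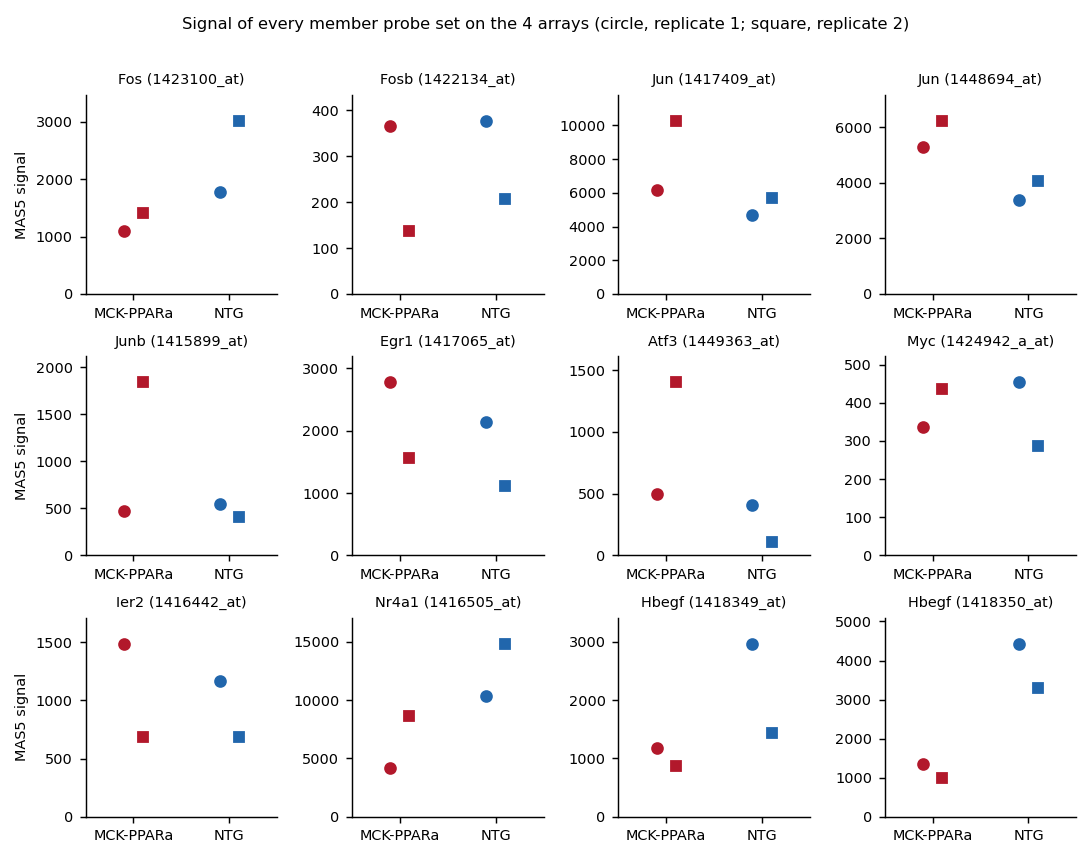
MAS5 signal (linear, each panel from 0) of the 12 probe sets of the 10 genes, 1 panel per probe set, with the 2 MCK-PPARa arrays on the left in red and the 2 NTG arrays on the right in blue. Circles are replicate 1 and squares replicate 2. Hbegf, Nr4a1 and Fos lie lower on both MCK-PPARa arrays, while Fosb, Egr1 and Ier2 lie higher on the circles than on the squares in both groups.

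Hbegf had the largest difference below 0 among the 10 genes. Its brighter probe set read 1342 and 990.4 in MCK-PPARa muscle, against 4428 and 3306 in NTG muscle. Both transgenic arrays were well below both controls, and the level in MCK-PPARa muscle was 3.20-fold lower (-1.68 ± 0.33, limma adjusted p = 0.19, 95% interval -2.43 to -0.92). Taken within each replicate number, the difference was -1.68 for both. The other probe set read 1182 and 877.9 in MCK-PPARa muscle, against 2968 and 1432 in NTG muscle. It was lower too, by a smaller amount (-0.97 ± 0.42, limma adjusted p = 0.89 over all probe sets). With 1 array left out in turn, which leaves 1 array in that group, the Hbegf difference ran from -1.88 to -1.47. Over 13 alternative settings its limma adjusted p ran from 0.0055 to 0.33.

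The 4 genes other than members whose centred values over the 4 arrays lay nearest to those of Hbegf were Rilpl1, Aimp2, Map2k6 and Cnot7. Their root mean square differences from Hbegf were 0.14, 0.14, 0.15 and 0.18 on the log2 scale. Map2k6, a kinase that activates p38, read 1433 and 1010 in MCK-PPARa muscle and 4652 and 4381 in NTG muscle. Aimp2, a scaffold protein of the aminoacyl-tRNA synthetase complex, read 12411 and 11395 in MCK-PPARa muscle and 37387 and 31632 in NTG muscle.

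Of 18 other genes of EGF family signalling 12 were tested, and none passed limma's threshold. Against 5.85% of all genes, 1 had an unadjusted p under 0.05. That gene was Egf, the founding ligand of the family, and its direction was opposite to that of Hbegf. Egf read 4081 and 3688 in MCK-PPARa muscle, against 1278 and 1314 in NTG muscle. Both transgenic arrays were well above both controls, and the level was 2.90-fold higher (1.54 ± 0.29, limma adjusted p = 0.18). The next by p were the ligand Nrg4 (0.83 ± 0.46), the receptor inhibitor Errfi1 (-0.68 ± 0.40) and the ligand Btc (0.63 ± 0.39), with limma adjusted p of 0.96 for each. Both NTG signals of Nrg4, 324.6 and 346.7, were below 423, the signal that matches the filter. Nrg4 was therefore tested only because of its MCK-PPARa levels. Egfr, the receptor for HB-EGF, read 3651 and 6046 in MCK-PPARa muscle and 3409 and 4664 in NTG muscle, and the groups overlapped (0.23 ± 0.35, limma adjusted p = 0.98). The sheddases Adam10 (-0.52 ± 0.33) and Adam17 (-0.68 ± 0.53) did not pass either. The median difference of the 12 was 0.21.

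**Figure D2:**
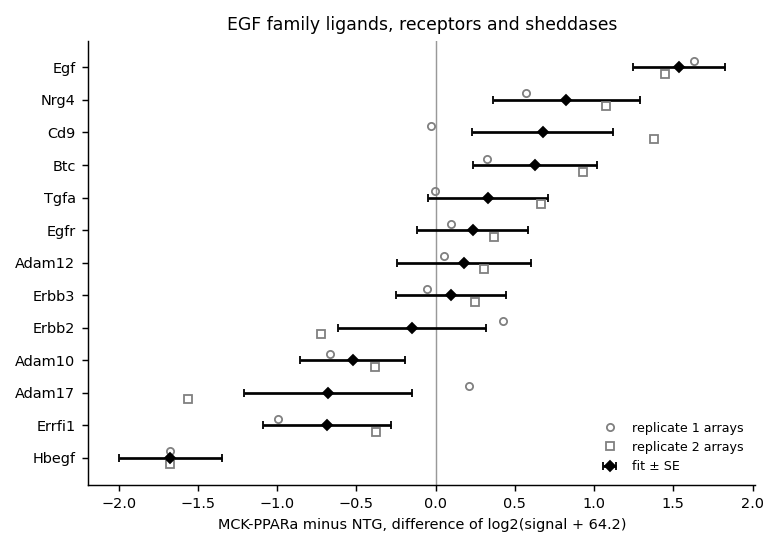
Differences between MCK-PPARa and NTG muscle on the log2(signal + 64.2) scale for Hbegf and the 12 other EGF family ligands, receptors, sheddases and regulators tested. Diamonds with bars are the limma difference and its SE (n = 2 arrays per group), and open circles and squares are the differences between the replicate 1 and the replicate 2 arrays. Egf lies at 1.54 and Hbegf at -1.68, at opposite ends.

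Nr4a1 and Fos shared a pattern over the 4 arrays: lower in MCK-PPARa muscle, and within each genotype lower on replicate 1 than on replicate 2. Nr4a1 read 4221 and 8652 in MCK-PPARa muscle, against 10324 and 14824 in NTG muscle. The groups did not overlap, and the higher transgenic array was close to the lower control. The level was 2.03-fold lower (-1.02 ± 0.40, limma adjusted p = 0.76), and within replicate 1 the difference was -1.28, within replicate 2 -0.77. Fos read 1101 and 1404 in MCK-PPARa muscle, against 1782 and 3013 in NTG muscle. It was 1.82-fold lower (-0.87 ± 0.36, limma adjusted p = 0.81), and within replicate 1 the difference was -0.66, within replicate 2 -1.07. With 1 array left out in turn the difference ran from -1.54 to -0.51 for Nr4a1 and from -1.23 to -0.50 for Fos.

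The promoters of Nr4a1 and Fos are printed because these genes read lower together, beside that of Jun, which read higher in MCK-PPARa muscle. Each is the RefSeq window from 250 bases before to 50 bases after the annotated start on GRCm38.p6, read 5′ to 3′ along the gene, and 6 of the 10 genes matched such a window. Egr1, Myc, Ier2 and Hbegf had none, so their promoters were not searched. Capitals mark TGACG, the core of the cAMP response element, on either strand (it reads CGTCA on the other), and in Fos also TATAAA. In Jun they mark TGACATCA, a known AP-1-like site of that promoter. The Nr4a1 window is chr15:101266596-101266895, plus strand. The Fos window is chr12:85473640-85473939, plus strand. The Jun window is chr4:95052173-95052472, minus strand.
Nr4a1: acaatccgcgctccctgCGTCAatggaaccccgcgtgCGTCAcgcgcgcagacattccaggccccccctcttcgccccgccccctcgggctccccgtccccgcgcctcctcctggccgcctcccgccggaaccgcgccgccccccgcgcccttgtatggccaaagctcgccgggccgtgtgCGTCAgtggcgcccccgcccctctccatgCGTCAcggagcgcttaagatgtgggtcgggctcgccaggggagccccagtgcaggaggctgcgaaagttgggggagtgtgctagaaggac
Fos: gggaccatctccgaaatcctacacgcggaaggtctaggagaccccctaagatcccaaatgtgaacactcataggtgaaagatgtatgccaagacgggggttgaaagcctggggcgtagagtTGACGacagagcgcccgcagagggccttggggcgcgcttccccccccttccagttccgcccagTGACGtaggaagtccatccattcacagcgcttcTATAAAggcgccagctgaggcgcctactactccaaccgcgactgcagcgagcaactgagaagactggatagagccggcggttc
Jun: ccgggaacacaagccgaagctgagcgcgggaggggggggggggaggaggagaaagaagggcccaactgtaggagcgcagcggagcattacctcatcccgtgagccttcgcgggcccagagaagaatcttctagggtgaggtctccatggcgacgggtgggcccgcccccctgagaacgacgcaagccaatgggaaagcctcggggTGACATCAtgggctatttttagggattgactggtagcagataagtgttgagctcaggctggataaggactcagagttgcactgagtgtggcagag

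The Nr4a1 window held 4 matches to TGACG, and 0.231% of all 32851 promoter windows of this length hold 4 or more. The Fos window held 2, at -129 and -66 from the start, and 5.01% of all windows hold 2 or more. Fosb, Junb and Atf3 had 1 match each and Jun none, so that 5 of the 6 windows held the core, as did 20.8% of all windows. TGACATCA was found in the Jun window alone among the 6, at -45, and in 3.62% of all windows. TATAAA stands at -33 in Fos and at 1 in Junb, in 2 of the 6 windows, and was found in 13.6% of all windows. The full element TGACGTCA, the AP-1 letters TGANTCA and the CArG box, searched on both strands, had no match in these 6 windows. Bases farther upstream than the windows were not searched, so a site there, in Fos or another member, would have been missed. TGACGTCA contains TGACG, so matches to the first would count in both. The matches describe letters only.

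The genes nearest to Nr4a1 in their centred values over the 4 arrays were Mllt11, Camk2a, Cdkn2aipnl and Cebpd, at root mean square differences of 0.039, 0.041, 0.067 and 0.076. Cebpd, a transcription factor gene that also appears in the list of other immediate early genes below, read 1167 and 2236 in MCK-PPARa muscle and 3113 and 4145 in NTG muscle. Camk2a, a calcium-dependent kinase gene, read 175.2 and 422.5 in MCK-PPARa muscle and 556.7 and 798.6 in NTG muscle. Both MCK-PPARa signals were below 423, the signal that matches the filter, so Camk2a passed it only because of its NTG levels. Those nearest to Fos were Prps1l3, Parp1, Fem1b and Egln3, at 0.056, 0.058, 0.070 and 0.072. Egln3, an oxygen-sensing hydroxylase gene, read 1485 and 1807 in MCK-PPARa muscle and 2079 and 3709 in NTG muscle.

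Jun and Fosb, also genes of AP-1 proteins, did not pass the test either. Jun read 6171 and 10258 in MCK-PPARa muscle, against 4687 and 5703 in NTG muscle. Its second probe set read 5275 and 6221 in MCK-PPARa muscle, against 3369 and 4080 in NTG muscle. Both probe sets were higher on both transgenic arrays and gave nearly the same difference, 0.62 ± 0.34 (limma adjusted p = 0.95) and 0.62 ± 0.28 (limma adjusted p = 0.92 over all probe sets). For the brighter one the difference was 0.25 when MCK-PPARa replicate 2 was left out, and 0.98 when MCK-PPARa replicate 1 was. Fosb, the Fos paralogue, was dim, with 364.9 and 137.1 in MCK-PPARa muscle and 376.6 and 207.1 in NTG muscle. Its groups overlapped, and the difference was -0.23 ± 0.61 (limma adjusted p = 0.99 over all probe sets).

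Junb and Atf3 were each high on MCK-PPARa replicate 2. Junb, a Jun paralogue, read 471.0 and 1841 in MCK-PPARa muscle, against 543.0 and 408.6 in NTG muscle. Replicate 1 of the transgenic group lay between the controls, so the groups overlapped (0.91 ± 0.60, limma adjusted p = 0.96). Atf3, a stress-induced factor of the ATF family, read 499.9 and 1400 in MCK-PPARa muscle, against 406.0 and 107.1 in NTG muscle. The groups did not overlap, and Atf3 read higher in MCK-PPARa muscle (1.68 ± 0.68, limma adjusted p = 0.78). Both NTG signals were below 423, the signal that matches the filter, so Atf3 was tested only because of its MCK-PPARa levels, and no fold is given. Most of that lay within replicate 2, at 3.10, against 0.26 within replicate 1. For Junb the same values were 2.01 and -0.18. With an offset of 50% of the median signal in place of 10% the Atf3 difference was 1.09, so its size depends on the offset.

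The sizes of the Junb and Atf3 differences depended on single arrays. Without MCK-PPARa replicate 1, which leaves 1 array in that group, the difference was 1.83 for Junb and 2.37 for Atf3. The filter used all 4 arrays, so Atf3 was in these fits only because of its MCK-PPARa levels. Without MCK-PPARa replicate 2 the Junb difference was -0.0016 and that of Atf3 0.99, and without NTG replicate 2 that of Atf3 was 0.95. Over the alternative settings that kept all 4 arrays the limma adjusted p ran from 0.44 to 0.98 for Junb and from 0.27 to 0.88 for Atf3.

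Egr1, Ier2 and Myc showed overlapping groups. Egr1, a zinc finger factor, read 2775 and 1562 in MCK-PPARa muscle, against 2132 and 1118 in NTG muscle (0.42 ± 0.42, limma adjusted p = 0.97). Ier2, which encodes a small nuclear protein, read 1487 and 689.5 in MCK-PPARa muscle, against 1169 and 684.8 in NTG muscle (0.17 ± 0.46, limma adjusted p = 0.99). In both genes the replicate 1 arrays of the 2 genotypes were high and the replicate 2 arrays low. Myc, a growth-promoting factor, was dim, with 337.8 and 435.5 in MCK-PPARa muscle and 453.5 and 287.7 in NTG muscle (0.070 ± 0.53, limma adjusted p above 0.99 over all probe sets). The 95% intervals of the Egr1 and Ier2 differences, -0.56 to 1.39 and -0.89 to 1.23, include differences of 1 on the log2 scale in the upward direction.

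Arrays were then compared by replicate number, as replicate 1 minus replicate 2 in a limma fit with both genotype and replicate number. None of the 8 tested members passed the adjusted threshold, at which 3.63% of all genes were called, and at an unadjusted p under 0.05 there were 4 (Nr4a1, Egr1, Ier2 and Jun), where 23.7% of all genes reached that level. For 3 of the 10 genes, Fosb, Egr1 and Ier2, both replicate 1 arrays lay above both replicate 2 arrays. Over all genes 21.2% did so in that direction and 48% in either direction, and without a filter 44.3% of the probe sets in either direction, and 1.93% of the probe sets were called. The members' median difference was 0.081 on the log2 scale, beside -0.11 over the 12393 genes without a filter, and it was -0.039 with the 50% offset.

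The replicate numbers split the 10 genes into 3 sets. Fosb (0.90 ± 0.52, limma adjusted p = 0.41 over all probe sets), Egr1 (0.85 ± 0.23, limma adjusted p = 0.072) and Ier2 (0.88 ± 0.28, limma adjusted p = 0.11) were higher on replicate 1 within both genotypes. Hbegf also read higher on replicate 1 in both, by 0.41 ± 0.22 (limma adjusted p = 0.29). Nr4a1 (-0.77 ± 0.21, limma adjusted p = 0.072), Fos (-0.54 ± 0.24, limma adjusted p = 0.22) and Jun (-0.50 ± 0.21, limma adjusted p = 0.18) read lower on replicate 1 in both. The second Jun probe set was lower by a smaller amount (-0.25 ± 0.19, limma adjusted p = 0.53 over all probe sets). Junb, Atf3 and Myc ran in opposite directions in the 2 genotypes, as did 31.8% of all genes. For Atf3 the replicate 1 minus replicate 2 difference was -1.38 within MCK-PPARa and 1.46 within NTG, so its fitted value of 0.041 is a mean of opposites.

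**Figure D3:**
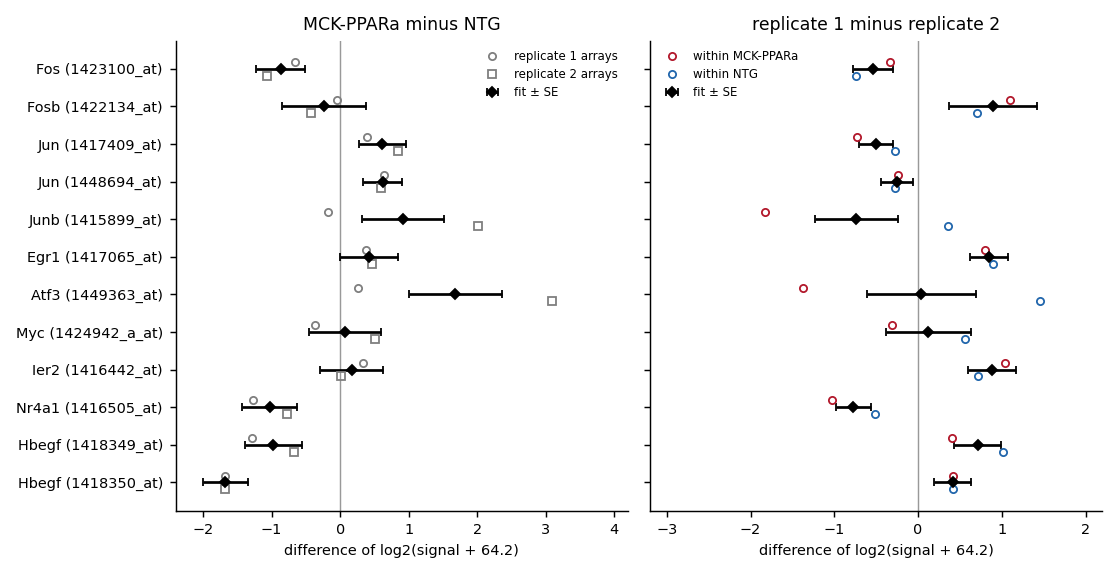
Differences of the 12 probe sets on the log2(signal + 64.2) scale, MCK-PPARa minus NTG on the left and replicate 1 minus replicate 2 on the right. Diamonds with bars are the limma difference and its SE (4 arrays), from the fit of the 8400 genes where the probe set was in it and otherwise from that of all probe sets. Open symbols are the differences within each replicate number or within each genotype, which lie far apart for Junb and Atf3 and on top of each other for the brighter Hbegf probe set.

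The replicate numbers also differed in control probe sets. Signal at the 5′ end of 18S rRNA was 2313 in MCK-PPARa and 2202 in NTG muscle for replicate 1, against 44.7 in MCK-PPARa and 28.9 in NTG muscle for replicate 2. The ratio of the 3′ to the 5′ signal, a measure of RNA integrity, ran from 0.72 to 0.96 for Gapdh and from 0.79 to 0.88 for Actb over the 4 arrays. The part of these in the members' replicate differences was not tested.

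**Figure D4:**
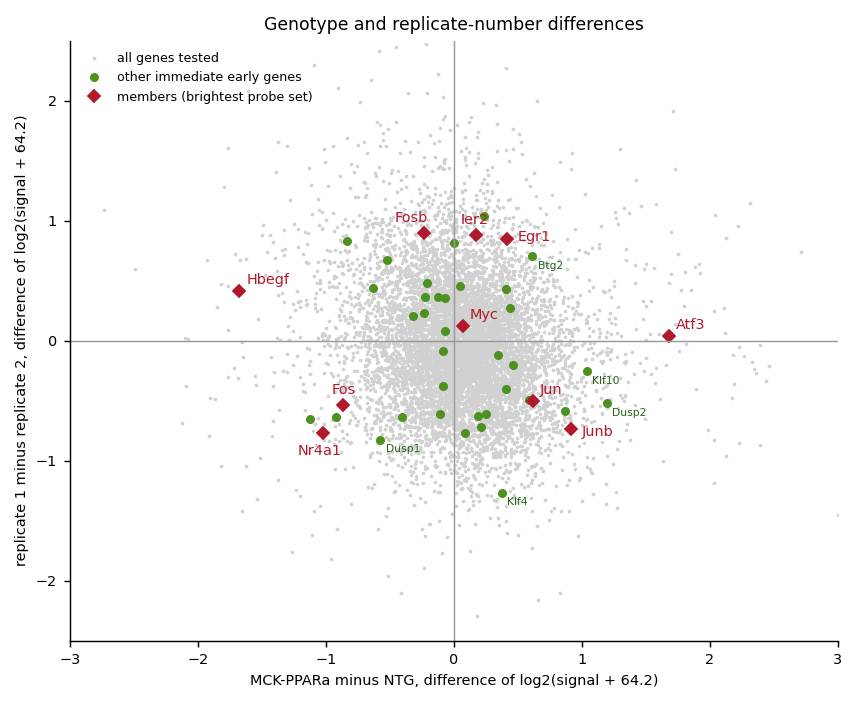
Each point is a gene, with the MCK-PPARa minus NTG difference on the x axis and the replicate 1 minus replicate 2 difference on the y axis, both of log2(signal + 64.2). Red diamonds are the 10 genes, green circles are 35 other immediate early genes, and grey points are the 8400 genes tested, of which 21 lie outside the axes. Nr4a1 and Fos sit at the lower left, Egr1, Ier2 and Fosb at the top, and Hbegf and Atf3 far to the left and right.

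A list of 47 other immediate early and early response genes had 35 that were tested. None passed between genotypes in limma, and 5 had an unadjusted p under 0.05, against 5.85% of all genes. The median difference was 0.0028, with 18 above 0 and 17 below. The 4 with the smallest p were Klf10 (1.04 ± 0.31), a zinc finger factor gene, Dusp2 (1.19 ± 0.40), a phosphatase of MAP kinases, Cebpd (-1.12 ± 0.38) and the antiproliferative gene Tob1 (-0.92 ± 0.38), with limma adjusted p from 0.50 to 0.81. Klf10 read 2197 and 2542 in MCK-PPARa muscle, against 997.2 and 1251 in NTG muscle, without overlap. Dusp1, another MAP kinase phosphatase, read 4705 and 9293 in MCK-PPARa muscle and 7803 and 12511 in NTG muscle, with overlap. Nr4a2, the paralogue of Nr4a1, read 420.5 and 698.4 in MCK-PPARa muscle and 335.1 and 624.3 in NTG muscle. Its groups overlapped (0.21 ± 0.50, limma adjusted p = 0.99). The 95% interval of its difference, -0.94 to 1.36, is too wide to tell whether Nr4a2 shared the lower transgenic levels of Nr4a1.

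Between replicate numbers 1 of these 35 genes was called, where 3.63% of all genes were. Klf4, a zinc finger factor gene, was lower on replicate 1, with 875.7 on MCK-PPARa replicate 1 and 741.9 on NTG replicate 1, against 2453 and 1678 on the replicate 2 arrays (-1.27 ± 0.25, limma adjusted p = 0.034). The Klf4 call was lost without a filter (adjusted p = 0.054), with the mean of its probe sets (0.088), without a variance trend (0.15) and without the genotype term (0.21). Over 9 alternatives its adjusted p ran from 0.022 to 0.21. The next by p were Dusp1 (-0.82 ± 0.20), the antiproliferative gene Btg2 (0.70 ± 0.20) and the mRNA decay factor gene Zfp36l2 (1.04 ± 0.30), with limma adjusted p of 0.054, 0.080 and 0.085. Of the 35, 16 were above 0 and 19 below, as the members too went both ways.

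Upstream of these genes, 22 of a list of 30 kinases and transcription factors were tested, and none passed between genotypes in limma. Against 5.85% of all genes, 1 had an unadjusted p under 0.05. That gene was Atf4, a factor of the amino acid and stress response, which read 4571 and 3895 in MCK-PPARa muscle, against 8653 and 8103 in NTG muscle. Both transgenic arrays were below both controls (-0.98 ± 0.28, limma adjusted p = 0.47). The list's median was -0.23, with 15 of 22 below 0, where 3742 of the 8400 genes were below 0. Srf, whose protein binds the CArG box, overlapped between groups, with 4171 and 5500 in MCK-PPARa muscle and 6321 and 5188 in NTG muscle (-0.25 ± 0.30, limma adjusted p = 0.97).

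Among AP-1 dimer partners 11 of 14 genes were tested and none passed, with 0 at an unadjusted p under 0.05 in limma (5.85% of all genes). Jund, the third Jun gene, had the smallest p, with 7691 and 14532 in MCK-PPARa muscle and 6819 and 7199 in NTG muscle (0.59 ± 0.36, limma adjusted p = 0.96). Of the Myc network 10 of 14 genes were tested and none passed in limma, with 1 at an unadjusted p under 0.05 (5.85% of all genes). This was Mlxip (0.82 ± 0.29, limma adjusted p = 0.69), which encodes a glucose-sensing factor that pairs with Mlx. The median differences were 0.22 for the AP-1 partners and -0.086 for the Myc network.

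A list held 12 genes of glucose and fuel use of the kind that Nr4a1 is known to raise in mouse muscle. Of these 11 were tested and none passed between genotypes in limma. Against 5.85% of all genes, 3 had an unadjusted p under 0.05. These were Cd36 (1.70 ± 0.35), the fatty acid translocase, Slc2a4 (-1.12 ± 0.29), the insulin-responsive glucose transporter, and Phka1 (-1.52 ± 0.45), a phosphorylase kinase subunit. Slc2a4 read 7162 and 8919 in MCK-PPARa muscle, against 17360 and 17615 in NTG muscle, and Phka1 read 5388 and 9406 in MCK-PPARa muscle, against 13678 and 30727 in NTG muscle. The other 8 differed by -0.38 to 0.31, and the median of the 11 was -0.14. Phka1 was also lower on replicate 1 than on replicate 2 (-0.98 ± 0.20, limma adjusted p = 0.034), as Nr4a1 read. That call was lost under 4 of 9 alternatives, and with the mean of its probe sets the value was -0.22 (adjusted p = 0.54).

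Of the genes whose proteins pair with Nr4a1 or resemble it, 5 of 6 were tested and none passed in limma. Against 5.85% of all genes, 1 had an unadjusted p under 0.05. That gene was Rxrg, the muscle-rich retinoid X receptor, which read 1479 and 1599 in MCK-PPARa muscle and 2630 and 2613 in NTG muscle (-0.75 ± 0.29, limma adjusted p = 0.76).

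The arrays held the markers of their labelled tissue. All 6 muscle fibre markers, among them Ckm, Acta1 and Myh4, passed the filter, with summed signals from 722707 to 865769. Des, the muscle intermediate filament gene desmin, was called between replicate numbers, with 93663 on MCK-PPARa replicate 1 and 72970 on NTG replicate 1, against 47502 and 34861 on the replicate 2 arrays (1.02 ± 0.19, limma adjusted p = 0.029). That call was lost under 4 of 9 alternatives, and with the mean of its probe sets the value was 0.33 (adjusted p = 0.34). Egr1, Ier2 and Fosb also read higher on replicate 1, and the part of this marker in their differences was not tested. Of the markers of other cells, 3 adipocyte markers summed to 25338 and 14143 in MCK-PPARa muscle, against 5360 and 5422 in NTG muscle. Most of each sum was Fabp4, with 21784 and 10839 in MCK-PPARa muscle, against 4186 and 3820.5 in NTG muscle. Adipoq also passed the filter and was higher on both MCK-PPARa arrays, while Lep did not pass it. The 5 endothelial markers summed to 14287 and 14089 in MCK-PPARa muscle, against 10342 and 10785 in NTG muscle, and the 5 macrophage markers to 10145 and 11162, against 8189 and 8917 in NTG muscle. The 5 neutrophil markers, of which 2 passed the filter, summed highest on MCK-PPARa replicate 2, where Junb and Atf3 were high. The sums were 4334 there, 2451 on MCK-PPARa replicate 1, and 2177 and 2630 in NTG muscle. The 4 smooth muscle markers summed to 14170 and 15238 in MCK-PPARa muscle, against 17462 and 15350 in NTG muscle, and the 2 red blood cell markers to 4432 and 3771, against 3389 and 2921 in NTG muscle. Taken singly, 0 of the 3 smooth muscle markers past the filter had groups that did not overlap, against 34.2% of all genes. Of the red blood cell markers Alas2 was higher on both MCK-PPARa arrays, and Hba-a1 overlapped. Of the endothelial and of the macrophage markers 3 of 5 each were higher on both, against 20.3% of all genes, and the rest overlapped. The sums of 5 fibroblast, 3 satellite cell and 2 nerve markers overlapped between the groups, and no marker was at 0. Immediate early genes can be induced in many of these cell types. Fewer cells of a type and less RNA per cell cannot be told apart in whole muscle. The part of the markers in the members' differences was not tested.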

How the data were processed

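Each of the 4 gastrocnemius samples, 2 MCK-PPARa and 2 NTG, was run on 1 expression array as total RNA. The authors deposited 1 signal intensity per sample for each of 22690 probe sets, made with MAS5 per the submitters' processing notes (its version and settings were not stated). The deposited intensities had 2% trimmed means from 1500.6 to 1500.7 and medians from 581.5 to 700.3, and were used without further normalization. No detection calls were used, so a dim signal may be background, and the number of arrays limits the precision.

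Gene symbols came from GEO's annotation of the platform. Of those other than the 64 controls, 20380 had 1 symbol, 691 several and 1555 none here; the last 2 kinds were left out. Values were taken as log2(signal + 64.2), the offset being 10% of the median of all values. The filter kept probe sets whose mean log2 value reached the 40th percentile, and with the brightest for each gene 8400 genes were tested. The tests used limma 3.58.1 in R 4.3.3 (lmFit, eBayes with a variance trend, two-sided, Benjamini-Hochberg). The genotype fit had no covariate (2 residual degrees of freedom, 7.86 after moderation), and the replicate-number fit also held genotype (1 residual degree of freedom, 8.99 after moderation). Both fits were tested on simulated data. The alternatives were 2 other offsets, no filter and a stricter one, quantile normalization, median centring, no variance trend, the mean of a gene's probe sets, the replicate number as a block, the fit without the genotype term and each array left out.

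The members and gene lists were chosen with earlier results of these data known. The text names all members, and of each other list the genes called in either comparison, or up to 4 by smallest unadjusted p in each comparison. It also names the 4 nearest profiles of Fos, Nr4a1 and Hbegf. Egfr, Adam10, Adam17, Srf, Nr4a2 and Dusp1 in the genotype comparison were named for their roles, after their values were seen. Promoter windows came from RefSeq tables for GRCm38.p6.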

Additional observations from a re-analysis of the deposited data

Results flagged for a closer look

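Of the 10 members, 3 ran in opposite directions by replicate number in the 2 genotypes, which was not tested, since each genotype has 1 array per number. For Junb the replicate 1 minus replicate 2 difference of log2(signal + 64.2) was -1.83 within MCK-PPARa and 0.36 within NTG. For Atf3 it was -1.38 within MCK-PPARa and 1.46 within NTG. For Myc, which is dim on all 4 arrays, it was -0.31 within MCK-PPARa and 0.56 within NTG. Opposite directions were found for 31.8% of all genes tested.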

How the results depend on the processing

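The genotype comparison called 5 genes (4 higher and 1 lower). It called 2 with the stricter filter, 3 after median centring (2 higher and 1 lower), 12 with the mean of a gene's probe sets, and 68 to 150 with 1 array left out, where the lone array of a group is assumed to vary like the other group. With the replicate number as a block 196 were called, among them Hbegf (limma adjusted p = 0.0055) and Nr4a1 (0.037), and no other member. Of the other genes listed, the block also called Cd36 (0.0034), Fabp4 (0.0043), Phka1 (0.0052), Egf (0.0085), Slc2a4 (0.020), Adipoq (0.023), Atf4 (0.036) and Cebpd (0.042). Same-numbered arrays deviated together across genes (r = 0.46, genes not being independent replicates), but with 2 pairs and no label for the number the pairing is not established. The median over the members ran from -0.20 to 0.41 with 1 array left out, against 0.12. The differences of Egr1 (-0.031 to 0.86), Ier2 (-0.35 to 0.69) and Junb (-0.0016 to 1.83) changed sign with 1 array left out, that of Jun ran from 0.25 to 0.98, and those of Hbegf, Nr4a1, Fos, Jun and Atf3 kept theirs in every alternative run. The replicate-number comparison called 305 genes (207 higher and 98 lower on replicate 1), 368 after median centring (322 higher and 46 lower), 519 with the stricter filter, and 0 in limma without a variance trend or without the genotype term, where 1800 and 1197 genes had an unadjusted p under 0.05. With the 50% offset the Atf3 replicate difference was -0.15. Egr1 passed there with the stricter filter (adjusted p = 0.045) and median centring (0.0495), and Nr4a1 with quantile normalization (0.038). Median centring moved the median of all genes by -0.10 for genotype and by 0.14 for replicate number and turned no tested member's sign. The cause of these changes was not tested. No detection calls were at hand, and Fosb and Myc, below the filter, are the least certain values.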
